A study of Mus musculus with 16 samples.

Results

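mTEC-II is a population of medullary thymic epithelial cells sorted from the thymus of C57BL/6 mice as CD45-, Epcam+ and MHC class II high, and its 2 libraries of H3K4me2 are described here on their own terms: which genes and loci held the most of this histone mark, and over what width. The series also holds mTEC-I (CD45-, Epcam+, MHC class II low, Itgb4+), mTEC-III (CD45-, Epcam+, Ly6D+) and mTEC-IV (CD45-, Epcam+, MHC class II low, Itgb4-, L1cam+), with 2 libraries each, all from C57BL/6 mice kept free of specific pathogens. The members are the 23949 peaks of the deposited mTEC-II list, in which the authors combined both libraries, beside 29472 merged peaks of the whole series. After 2 mitochondrial peaks were set aside, 23947 nuclear peaks were ranked. A level is H3K4me2 in tags per 10000000 tags, and a width is a peak's end minus its start. Positions are in mm9, and a peak is named by the gene of its nearest start site, as the authors' table gives it. Distances to a start site and the places of centres are those of the merged peak that holds the mTEC-II peak. The labels do not say whether the 2 libraries came from separate mice, so the spread between them may be technical.

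Medullary thymic epithelial cells display the proteins of many other tissues to developing T cells, and those with high MHC class II carry out much of this presentation. Their identity is set during pharyngeal pouch development by transcription factors such as Foxn1, Pax9 and Eya1, and in mature cells Aire and Fezf2 switch on genes of other tissues. H3K4me2 marks promoters and enhancers of genes that are active or poised, and wide domains of H3K4 methylation are known at genes of cell identity. In bulk sorted cells, fewer cells with a mark and less of it per cell cannot be told apart.

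MHC class II genes share promoter elements through which the coactivator encoded by Ciita acts, an X box and a Y box, and these are shown because the population was sorted on MHC class II. RefSeq promoter sequences (GRCm38.p6, 250 bases before to 50 after the start site) were found for 11 of the 15 genes of a list of MHC class II presentation. In 5 of them AACNNATG, letters of the X box, was followed on the gene's strand after 10 to 30 bases by ATTGG, letters of the Y box. Capitals mark these letters in the windows below, which all lie on the plus strand of chromosome 17.
H2-Eb1: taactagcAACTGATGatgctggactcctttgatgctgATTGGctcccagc
H2-Eb2: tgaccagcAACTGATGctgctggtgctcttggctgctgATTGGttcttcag
H2-DMb1: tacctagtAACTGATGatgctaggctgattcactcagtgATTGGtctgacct
H2-DMb2: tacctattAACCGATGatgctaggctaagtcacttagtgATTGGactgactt
H2-Ob: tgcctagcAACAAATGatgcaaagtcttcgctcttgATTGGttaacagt
The windows are chr17:34305770-34305820 for H2-Eb1, chr17:34325537-34325587 for H2-Eb2, chr17:34153091-34153142 for H2-DMb1, chr17:34145120-34145171 for H2-DMb2 and chr17:34238812-34238860 for H2-Ob, all in GRCm38.p6. The X box letters begin from 85 (H2-Ob) to 130 (H2-Eb2) bases before the start site, and 20 to 23 bases separate them from the Y box letters. Of all 32851 promoters of this length, 0.103% hold the pair on the gene's strand, 8.86% hold AACNNATG on either strand and 37.4% hold ATTGG on either strand; the letters of both motifs do not overlap in a counted pair. A match is a description of the sequence only. H2-Aa and H2-Oa hold ATTGG on the gene's strand without AACNNATG. At each of these 5 genes a merged peak spans the start site, but the levels differed widely: 695.6 at the peak of H2-Eb1, 324.2 at H2-Eb2, 286.5 at H2-DMb2, 146.6 at H2-DMb1 and 121.0 at H2-Ob in the combined list.

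The levels of the mTEC-II peaks covered a range from 33.4 to 6626 with a median of 101, and 95% of peaks lay below 293. The strongest 100 peaks, 0.418% of all, held 2.57% of the tags in peaks, and the strongest 500 (2.09%) held 8.42%. The 2 libraries ranked the peaks alike: across merged peaks that hold an mTEC-II peak, Spearman's rho was 0.985 (peaks are no replicates of one another), the median absolute log2 ratio of the libraries was 0.11, and 94 of the strongest 100 merged peaks were shared. The libraries held 15412132.5 and 13504742.5 tags, the deepest of the series (the others held 1702103.5 to 9093698), with 31.9% and 32.2% of tags in merged peaks. In them 3 tags, the upper limit for a count of 0, correspond to levels of 1.95 and 2.22; such limits cover counting error only.

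The peak listed as strongest did not have that level in the libraries. It lies at chr7:97590832-97594998 near Crebzf, which encodes a transcription factor of the leucine zipper class, and is listed at 6625.9. The merged peak there had 275 and 267 in the 2 libraries, which ranks it 1803. The listed level was thus 24.5 times the mean of the libraries, while no other peak of the strongest 500 exceeded 1.06 times. The opposite was seen near Cbr3, where a peak listed at 33.7 (rank 23820) had a mean of 674 in the libraries; of 7385 peaks with the same coordinates in both files it was the 1 whose listed level was below 0.5 times the library mean, while 248 were listed at over 1.5 times; the median ratio was 1.03. Without the peak near Crebzf the strongest 100 held 2.37% of the tags. Ranks below are those of the list, in which this peak keeps rank 1.

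**Figure D1:**
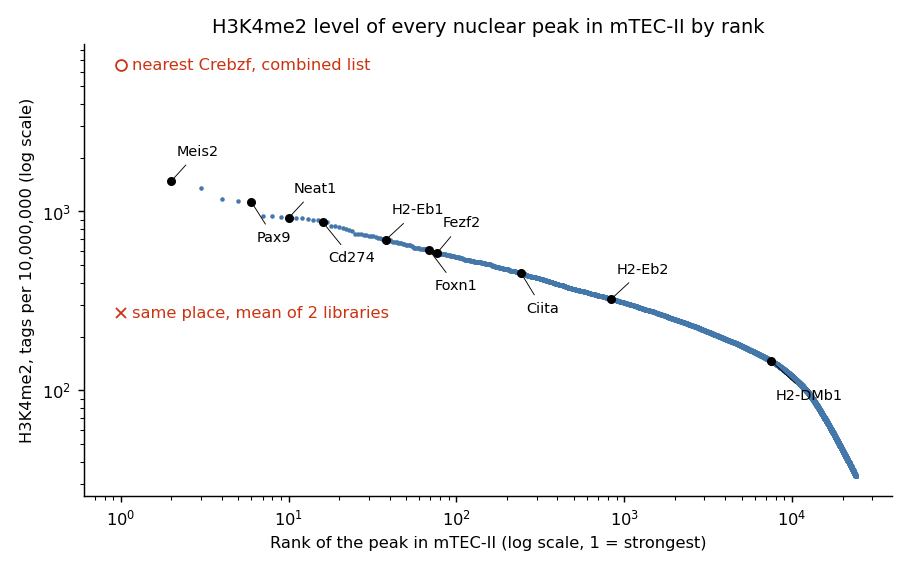
H3K4me2 level of each of the 23947 nuclear mTEC-II peaks (y axis, tags per 10000000, log scale) against its rank (x axis, log scale), from the combined list; black points are named peaks, and the red circle and cross are the list's level and the libraries' mean for the peak near Crebzf. The levels fall smoothly from 1479.9 at Meis2 to 33.4, and the listed level near Crebzf (6625.9) lies far above its library mean (271).

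Transcription factors of thymus and pharyngeal pouch development were among the strongest peaks. Meis2, a homeobox factor, had 1469 and 1514 tags per 10000000 in the 2 libraries at chr2:115877183-115902199. The centre of its merged peak lies 289 bp inside the gene. The Meis2 peak was also the widest, at 25016 bp. This peak stood above all other nuclear peaks in both libraries. Pax9, a paired-box factor of the pharyngeal pouches, ranked 6 with 1179 and 1092 at chr12:57789955-57804407 over 14.5 kb. Eya1, a transcriptional coactivator of pouch development, had 915 and 987 at chr1:14289675-14300857, in an intron 5.09 kb from the start site. The libraries of Pax9 and of Eya1 did not overlap, and both lay below Meis2.

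Other peaks of the strongest 15 lay away from any start site, at noncoding RNA genes or at genes of varied function. An intergenic peak at chr15:85494879-85513501, 30.2 kb upstream of Lincppara, a long noncoding RNA gene, had 1159 and 1183 over 18.6 kb, the third widest. Another intergenic peak of the same gene, 52.1 kb upstream, ranked 25 with 755 and 774. Tnrc18 had 974 and 941, Pcdh7, a protocadherin, 926 and 954, and Neat1, the scaffold RNA of paraspeckles, 902 and 939 over 17.3 kb. The zinc finger gene Zfp516 had 898 and 938 over 14.9 kb. A peak assigned to 9530052E02Rik, with 905 and 915, has its centre in an exon of Irs2, an adaptor of insulin signalling.

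Genes of signalling, costimulation and cytokine supply were also among the strongest 40 peaks. Birc2, a ubiquitin ligase that restrains the alternative NF-κB pathway, had 906 and 892 at chr9:7825521-7838715 over 13.2 kb (rank 15). Cd274, which encodes the inhibitory ligand PD-L1, had 874 and 891 at chr19:29437976-29452566 over 14.6 kb (rank 16). Il7, the cytokine that thymocytes need to survive, had 818 and 799.7 at chr3:7603985-7618653 over 14.7 kb (rank 21). The lower library of Birc2 (892) lay just above the higher library of Cd274 (891), so these neighbours in rank barely differed. Tnip1, a brake on NF-κB signalling, had 725 and 706 (rank 33).

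Regulators of transcription among the strongest 40 peaks also included Nfia (853 and 860.1), Bcl11a (815 and 824), Meis1 (932 and 875), Bcl6 (749 and 736), Zfp503 (748 and 755), Hes7 (716 and 712), Nfe2l1 (701 and 701), a regulator of proteasome genes, and Kdm6b (760.4 and 795), a demethylase of histone H3 lysine 27. The growth factor gene Fgf9 had 733 and 715. H2-Eb1, a chain of an MHC class II molecule, ranked 38 with 673 and 723 at chr17:34440547-34453001, and was the only MHC class II gene among these 40. Its libraries overlap the range of Fgf9 and Hes7. At the edge of the strongest 100, Sox9 (558.8 in the combined list) and Srgn (558.5) lay just inside, and Bhlhe41 (558.0) and the intron peak nearest Mir15a (557.5) just outside, so the limit falls between values that differ by less than the libraries do.

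**Figure D2:**
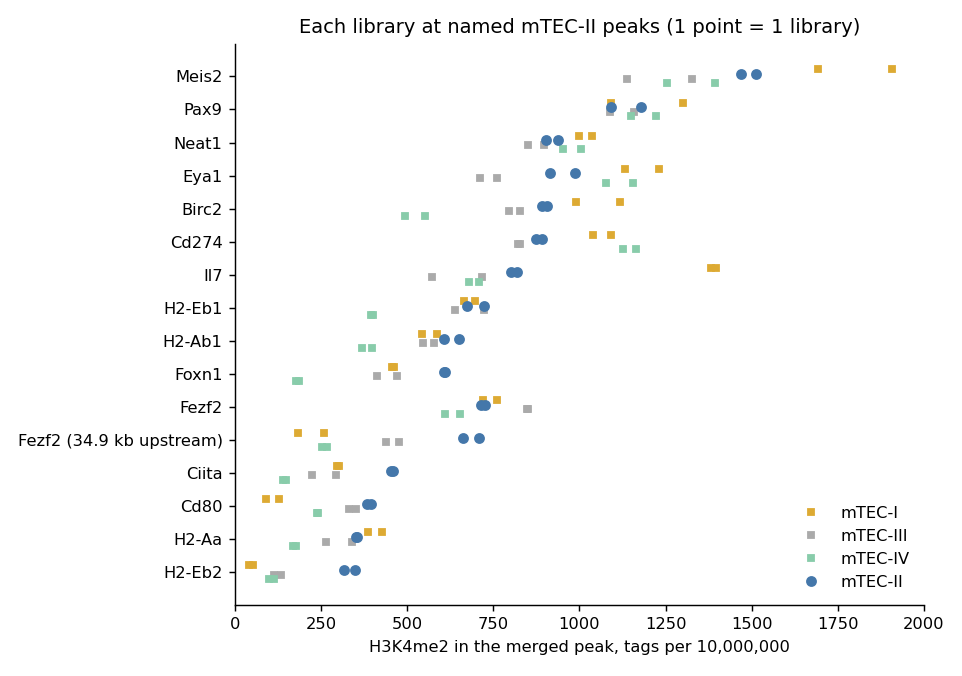
H3K4me2 in merged peaks (x axis, tags per 10000000) at named mTEC-II peaks (y axis, in order of mTEC-II rank); each point is 1 library, blue for mTEC-II and other colours for the other populations. In mTEC-II the 2 libraries lie close together at each gene, from 1469 and 1514 at Meis2 to 315 and 349 at H2-Eb2.

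Width and level went together. Across the 23947 peaks Spearman's rho was 0.916 between level and width, 0.741 between level and tags per kb, and 0.438 between width and tags per kb; the level is a sum over the width, so the first is partly fixed by construction. The median width was 1.92 kb over all peaks and 10.4 kb over the strongest 100, whose median density was 64.6 tags per kb against 52.1 over all. Of the strongest 100, 63 were also among the widest 100 and 9 among the densest 100. Among the peaks that ranked higher by width than by level were those of Sik1, a kinase gene induced by cyclic AMP (16.2 kb, 743 and 803), Sgpp1, a phosphatase of sphingosine 1-phosphate (15.5 kb, 805 and 849), Cxxc5 (15046 bp, 715 and 629.8) and Pdcd4, an inhibitor of translation (14.2 kb, 757 and 781). Their levels per kb were low for strong peaks, from 44.6 tags per kb at Cxxc5 to 53.3 at Sgpp1.

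The densest peaks were short, and several lay at pseudogenes with near-identical copies. An intergenic peak of 1.19 kb at chr1:197067148-197068342, whose nearest start site is that of Cr2 at 64.8 kb, had 867 and 942 tags per 10000000, or 757 per kb. A peak at the pseudogene Pisd-ps2 was dense too, with 345 tags per kb in the list and 1059 and 1103 in its merged peak. So was a peak assigned to the pseudogene Pisd-ps3, with 195 tags per kb in the list and 827 and 828 in its merged peak. The centre of that merged peak lies in an intron of Pisd-ps1. How the authors counted reads that match several copies is not known here, so the levels of these pseudogenes are uncertain. Hjurp, which encodes a chaperone of centromeric chromatin, had 649 and 646 in a peak of 2.66 kb (242 tags per kb).

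**Figure D3:**
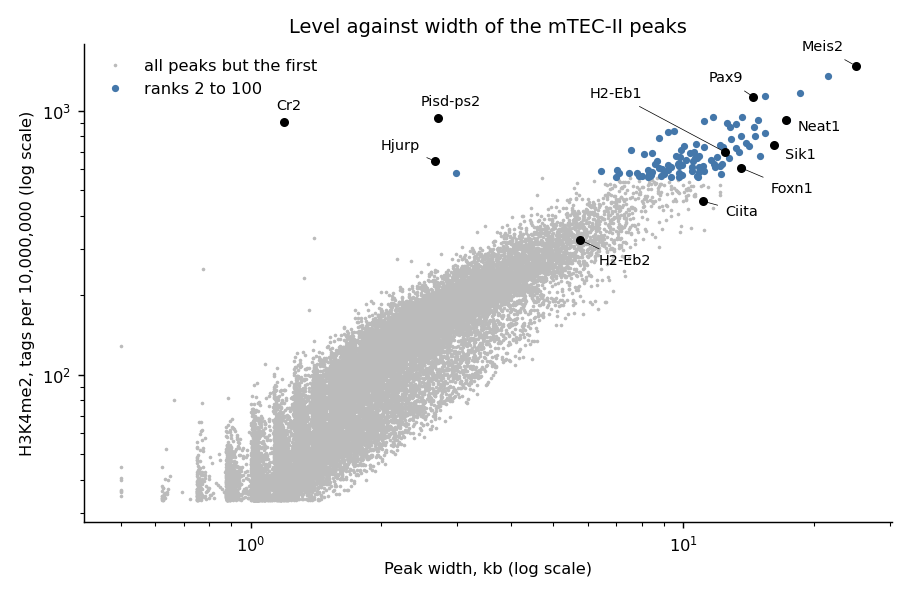
Level (y axis, tags per 10000000, log scale) against width (x axis, kb, log scale) of the mTEC-II peaks of the combined list, without the peak near Crebzf; blue points are ranks 2 to 100 and black points are named. Most of the strong peaks are wide, up to 25016 bp at Meis2, while those nearest Cr2, Pisd-ps2 and Hjurp reach similar levels in 1.19 to 2.71 kb.

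Strong peaks mostly lay in merged peaks that spanned a start site. The centre was downstream of the nearest start site in 69.0% of the strongest 100, near the 64.9% of all peaks. Spans and centres here are those of the merged peaks of the whole series, which can be wider than the mTEC-II peak. A merged peak spanned the annotated start site in 93.0% of the strongest 100 (Wilson 95% interval 86.3 to 96.6) and in 54.5% of all peaks, and a wide peak spans a start site more easily than a narrow one. The centre of the merged peak lay within 1 kb of a start site in 33.2% of the strongest 500 (29.2 to 37.4) and in 46.2% of all peaks. Among peaks that spanned a start site, the median centre was 1592 bp downstream of it in the strongest 100, 1160 bp in the strongest 500 and 279 bp over all. A wider merged peak can have its centre farther from a start site that it spans. The median width of the mTEC-II peaks was 10.4 kb in the strongest 100 and 1.92 kb over all. The share of spanning peaks with a downstream centre was alike, 72.0% in the strongest 100 and 71.3% over all. The share with the centre within 1 kb depends on the limit chosen: within 2.5 kb it was 71.6% of the strongest 500, and among the 500 densest peaks 70.8% lay within 1 kb. Peaks with a centre over 10 kb from any start site were 33.8% of all and 6.60% of the strongest 500 (4.74 to 9.12).

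**Figure D4:**
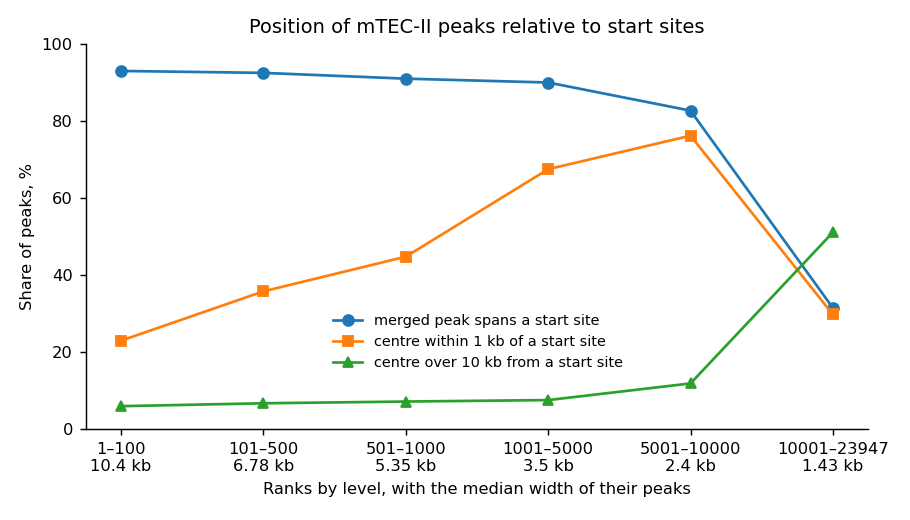
Share of mTEC-II peaks (y axis, %) whose merged peak spans a start site, has its centre within 1 kb of one, or has it over 10 kb away. The x axis gives 6 classes of rank by level, with each class's median width. The share that spans a start site falls from 93.0% in ranks 1 to 100 to 31.5% in ranks 10001 to 23947, while the share over 10 kb away rises from 6.00% to 51.1%.

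The strongest distal peaks, over 10 kb from a start site, were led by the peak 30.2 kb upstream of Lincppara, followed by the short peak nearest Cr2 (867 and 942) and the other peak upstream of Lincppara. The control was also dense at the peak nearest Cr2, so its place here is uncertain. Tcf4, a basic helix-loop-helix factor, had 614 and 649.8 in an intron 249.9 kb from its start site. Intergenic peaks nearest Zfp541 (625 and 605) and Olfr1423 (621 and 609.8) had overlapping libraries, and an intron peak of Dleu2 nearest Mir15a (534 and 596) lay below both. An intergenic peak 208.0 kb from the start site of Meis2 had 544 and 548, which gave Meis2 another strong peak. A peak 34.9 kb upstream of Fezf2, in an intron of the neighbouring gene Cadps, had 708 and 663 in its merged peak, and an intergenic peak nearest Irgm1, a GTPase of cell-autonomous immunity, had 515 and 555.

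The population's 3 marker genes, Ciita, H2-Eb2 and Fezf2, were chosen with earlier results of these data known, and they stood at different places in the ranking. Fezf2 ranked 6 among genes by summed level, with 1831 and 1795 (1813 ± 25.3, SD, n = 2) over 6 merged peaks. Its promoter peak at chr14:13170448-13180886 ranked 77 and the upstream peak at chr14:13206500-13216820 ranked 114. Their merged peaks had 726 and 715, and 708 and 663. All merged peaks of this sum but the promoter peak have their centre in an intron of the neighbouring gene Cadps. The sum of Fezf2 was higher in mTEC-III (1886) and lower in mTEC-I (1170.3) and mTEC-IV (1313). Ciita, the coactivator that MHC class II genes need, had 457 and 452 at chr16:10487769-10498911 over 11.1 kb, rank 242 by level but 45 by width. H2-Eb2, an MHC class II chain gene next to H2-Eb1, had 315 and 349 at chr17:34462277-34468043 over 5.77 kb, rank 837. All 3 therefore lay within the strongest 4.18% (1000) of peaks.

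Summed over the merged peaks nearest to each start site, 14838 genes had a median of 166. Nfia came first at 2723 ± 50.8 (SD, n = 2) over 18 peaks, followed by Meis2 (2486 ± 51.5, 8 peaks), Lincppara (1972 ± 28.9, 3 peaks), Meis1 (1936 and 1899.7, 9 peaks) and Zfp217 (1827 ± 24.9, 11 peaks). After Fezf2 came Smad1, a mediator of BMP signalling (1768 ± 48.8), Cxxc5 (1681 ± 60.8), Pax9 (1674 ± 51.5), Pde4b, a phosphodiesterase of cyclic AMP (1642 ± 52.4), and Tcf4 (1574 and 1672). Nfia and Meis2 stood apart from the rest by more than the spread of the libraries, whereas the libraries of Zfp217 overlapped those of Fezf2, and those of Cxxc5, Pax9, Pde4b and Tcf4 overlapped one another. The remainder of the first 15 were 1810026B05Rik, Rbm47, Gse1 and Maml3, from 1531 to 1411. A gene with a large neighbourhood collects more peaks, and the genes named here had 3 to 18 peaks against a median of 1.

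Of the 10 thymic epithelial transcription factors all had a peak, and 6 were in the top 10% of genes by summed level (387 or more). Pax9 was highest, Eya1 had 1222 ± 29.6, and Trp63, a factor of epithelial progenitors, had 823 ± 31.3 over 7 peaks. Foxn1, the master regulator of thymic epithelium, had 609 and 606 in 1 peak of 13.6 kb at chr11:78187416-78201054 (rank 69). Pax1 had 478 and 531. Six4, Tbx1 and Hoxa3 were lower, down to 131 ± 5.86 at Hoxa3, a gene required for pouch patterning. The list's median was 556, against 166 over all genes with a peak.

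Of the 15 genes of MHC class II presentation 13 had a peak, 5 were in the top 10% of genes, and the median was 332. H2-Eb1 (1006 ± 23.9), H2-Ab1 (628) and Ciita (523 ± 5.50) were highest. H2-Ab1 had 607 and 649 in 1 peak of 12.3 kb at chr17:34394002-34406298 (rank 57), and its merged peak was centred on the start site. H2-DMb2, a chain of the peptide exchange factor, had 487 ± 0.757, H2-Aa 402 ± 5.81 and Cd74, the invariant chain, 356 ± 26.3. H2-DMb1 (154 ± 6.33), H2-Oa (121 ± 3.25), H2-Ob (121 ± 13.5) and the protease gene Ctss (80.6 ± 13.5) were below the median of all genes. No peak was assigned to H2-DMa or Rfxank. A peak of 154 and 142 has its centre in an intron of H2-DMa, but the nearest start site is that of H2-DMb2, to which the table assigns it. Of the 10 genes of MHC class I presentation, 9 had a peak and 1 was in the top 10%, namely B2m, the light chain (537 and 537), and no peak was assigned to Nlrc5.

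Genes of the Aire stage and of costimulation were mostly high, with 8 of 14 in the top 10% and 11 with a peak. After Fezf2 came Cd274 (1106 ± 5.13), Tnfrsf11a, the receptor RANK (836 ± 72.3, 7 peaks), and Prdm1 (823 ± 16.6, 5 peaks). Cd80, a costimulatory ligand, had 383 and 393 at its main peak of 7.29 kb (rank 398), and Cd40 had 290.4 and 299.5. No peak was assigned to Aire, Cd86 or Hdac3. In the case of Aire, a peak of 4.30 kb at chr10:77503091-77507393 with 212 and 215 has its centre in an exon of Aire, and the table assigns it to the neighbouring gene Dnmt3l, whose start site is 327 bp away. This peak ranked 3264, below the promoter peak and the main upstream peak of Fezf2 and above its smaller peaks.

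All 18 genes of the NF-κB pathway had a peak and 9 were in the top 10%. Nfkbia, the feedback inhibitor IκBα, was highest with 1105 and 1133 over 5 peaks, then Nfkb1 (824 ± 6.17, 8 peaks), Nfkbiz (679 ± 20.3) and Map3k14, the kinase NIK (652 ± 8.78). Relb, which medullary epithelium needs to develop, was among the lowest with 177 ± 8.66. Of the 12 immediate early genes, 11 were in the top 10% with a median of 605, led by Ier2 (1053 ± 1.13), Fos (869 ± 41.4) and Klf4 (823 ± 17.8). Of the 10 ubiquitously expressed genes 9 had a peak and 4 were in the top 10%, with a median of 359.

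All 15 genes of epithelial identity had a peak and 8 were in the top 10%, led by Grhl2 (952 ± 49.2) and Epcam, the sort marker (832 ± 2.51). Basal keratinocyte genes were lower: Krt5 and Lamb3 had no peak, and of the 5 with one only Itga6 (493 ± 11.2) was in the top 10%. Cornified genes reached at most 229 ± 24.3 (Krt10), with no peak at Ivl, Flg or Sbsn. Genes of rarer epithelial types were mixed. Of 6 neuroendocrine genes 5 had a peak and 2 were in the top 10%, among them the factor Insm1 (553 ± 2.42), while Chga (70.7 ± 4.16) and Neurod1 (67.5 ± 13.8) were below the median of all genes and Syp had no peak. Of 5 microfold genes 3 had a peak and 1, the factor Spib (458 ± 0.919), was in the top 10%, with Sox8 at 42.2 ± 3.69 and no peak at Gp2 or Ccl20. Of 7 tuft cell genes 4 had a peak and 1, Sox9 (558 ± 12.2), was in the top 10%, with Gfi1b at 117 ± 23.6 and no peak at Trpm5, Gnat3 or Avil. Of 11 thymic chemokines 5 had a peak, none was in the top 10%, and Cxcl10 was highest (354 ± 0.750), with no peak at Ccl17, Ccl19, Ccl20, Ccl21a, Ccl22 or Xcl1.

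Markers of other cells of the thymus had a peak in 2 of 8 genes for thymocytes and in 3 of 5 for endothelium, with the other lists between. For thymocytes, Cd3e, Cd4, Cd8a, Lck, Rag1 and Ptcra had no peak, and the genes with one were Bcl11b (1003 ± 14.8, 12 peaks) and Tcf7 (384 ± 11.4). For dendritic cells and macrophages 4 of 8 had a peak, with Itgax, Cd209a, Spi1 and Ptprc at none, and sums from 39.7 to 278. For B cells 3 of 6 had a peak, with Cd79a and Ms4a1 among those without, and 687 ± 2.19 at Ebf1. The 3 of 6 fibroblast genes and 3 of 5 endothelial genes with a peak had medians of 60.4 and 74.9.

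**Figure D5:**
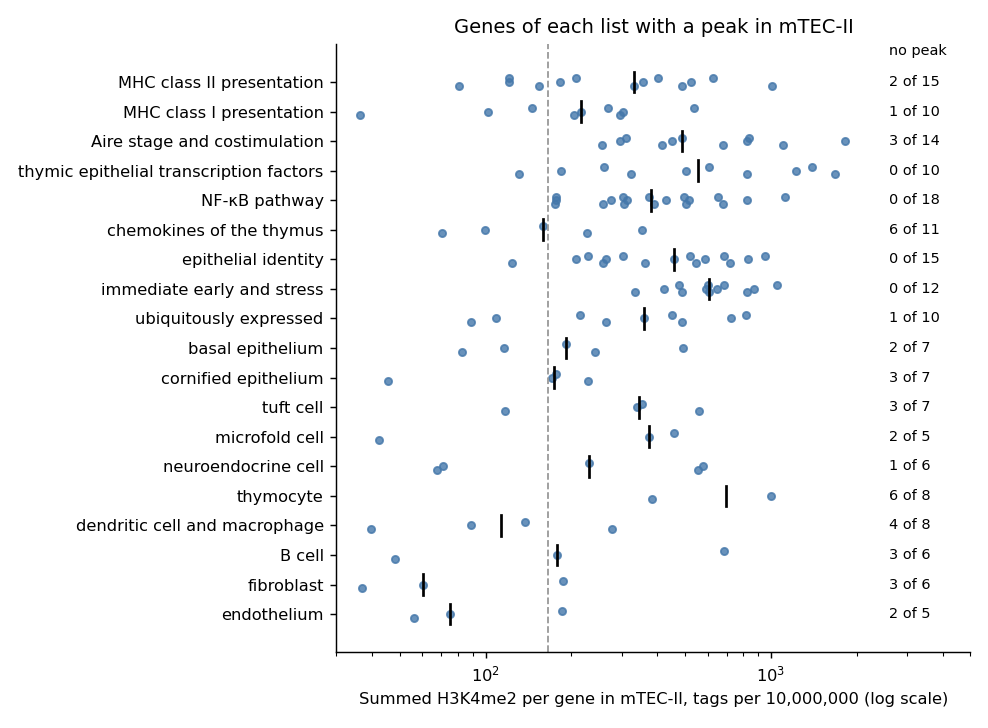
Summed H3K4me2 of each gene of the lists with a peak in mTEC-II (x axis, tags per 10000000, log scale; mean of 2 libraries), 1 row per list; black bars are medians of the genes with a peak, the dashed line is the median of all 14838 genes (166), and the column at the right counts genes with no peak. Thymic epithelial factors, Aire stage, epithelial and immediate early genes lie mostly right of the line, and so do NF-κB pathway and ubiquitously expressed genes. Fibroblast and endothelial genes, with only 3 points each, lie mostly left of it.

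Joining peaks at most 12500 bp apart gave 17567 regions, of which 4053 held more than 1 peak, and the median summed level was 130.4. Apart from the region at Crebzf, whose listed 6783 stood against 447 and 425 in the libraries, the strongest was a histone gene cluster at chr13:23579487-23679974 with 12 peaks and a sum of 3170.3 (3191 and 3233 in the merged peaks of the libraries). Another part of this cluster at chr13:22065725-22143818 summed to 2099 over 10 peaks and includes Prss16, a protease gene of the cortical thymic epithelium. The other 5 of the strongest 8 regions were the region of Lincppara and Wnt7b (2395, 7 peaks), the hyaluronidase genes Hyal1, Hyal2 and Hyal3 with Rassf1 on chromosome 9 (2059.6, 16 peaks), a gene-dense stretch with Eif5a and Cldn7 on chromosome 11 (1913, 11 peaks), one with Btn1a1 and Abt1 on chromosome 13 (1869, 9 peaks) and one with Fosb and Ercc2 on chromosome 7 (1858, 14 peaks). Histone genes are near-identical copies, so their levels are uncertain. The order of regions depends on the joining distance: with 5 kb, 2 of the strongest 8 regions were kept. The MHC class II genes H2-Eb1, H2-Aa and H2-Eb2 formed 1 region at chr17:34419928-34468043 that ranked 14 with a sum of 1729 (1710.4 and 1769.8), and peaks covered 70.1% of its 48.1 kb.

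The strongest peaks of mTEC-II were largely strong in the other populations too. Of its 100 strongest merged peaks, 68 were among the 100 strongest of mTEC-I, 68 of mTEC-III and 54 of mTEC-IV, and 97, 100 and 97 were among the strongest 1000 of these populations. Against the mean of the other populations, 15 of the 100 were higher and 14 lower in mTEC-II by limma's Benjamini-Hochberg adjusted p under 0.05. Over all 29469 tested merged peaks, 10.2% were higher (3015) and 7.23% lower (2130). The 100 were chosen by their mTEC-II level, so a high level there is built in and their counts are only a description. The counts rest on both mTEC-II libraries: without replicate 1 they were 3 and 2, and without replicate 2, 5 and 2. With the libraries scaled to equal totals in merged peaks, 19 were higher and 7 lower, and over all peaks 3808 and 1439. By edgeR on the recovered steps 23 were higher. The number lower was 9 and 8 without replicate 1 and replicate 2 of mTEC-IV, and 25 without replicate 2 of mTEC-I, the shallowest library. The median log2 change was -0.05 in the 100 and -0.05 over all peaks.

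Among named genes, the peak 34.9 kb upstream of Fezf2 ranked 49 among merged peaks in mTEC-II and 4265, 417 and 2548 in mTEC-I, mTEC-III and mTEC-IV (log2 change 1.21 ± 0.11 SE, adjusted p = 1.1e-04), while the promoter peak of Fezf2, with 726 and 715, was at -0.03 ± 0.05 (adjusted p = 0.773). Foxn1 was higher by 0.87 ± 0.07 (adjusted p = 8.5e-05), Ciita by 1.03 (adjusted p = 1.4e-04) and H2-Eb2 by 1.98 (adjusted p = 4.3e-05). In each of these the mTEC-II libraries lay above all 6 others. At Foxn1 the mean was 608 in mTEC-II, 458 in mTEC-I, 441 in mTEC-III and 180.0 in mTEC-IV. At Ciita the means were 454, 298, 259 and 143 in the same order. The low mTEC-IV values thus enlarge the change at Foxn1 and Ciita, which was smaller against mTEC-I and mTEC-III. Fezf2, Ciita and H2-Eb2 are the markers chosen with earlier results of these data known, so their p-values are only a description. H2-Eb1 (0.30 ± 0.07, adjusted p = 0.0104) and H2-Ab1 (0.34 ± 0.07, adjusted p = 0.00537) were called, but not without either mTEC-II library. At H2-Eb1 the mean was 698 in mTEC-II, 681 in mTEC-I, 680.4 in mTEC-III and 396 in mTEC-IV. An mTEC-III library (723) equalled the higher mTEC-II library there. At H2-Ab1 the means were 628, 565, 562 and 382 in the same order. The low mTEC-IV values thus weigh on the contrast at both genes. Meis2 and Pax9, the strongest named factors, were not called, with changes of 0.06 and -0.04. Ehf, an epithelial factor with 695 and 672 in mTEC-II, was lower than the mean of the others (-0.66 ± 0.06, adjusted p = 1.0e-04). Its mean was 683 in mTEC-II, 776 in mTEC-I, 961 in mTEC-III and 1698 in mTEC-IV, so the high mTEC-IV values weigh on this contrast. The mTEC-II peak of Ehf was listed at only 411.7 (rank 340), below the level of its merged peak. Klf3 was lower too (-0.58 ± 0.05, adjusted p = 1.0e-04). Both genes were chosen after their values were seen.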

How the data were processed

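Cells from enzyme-treated thymi were separated by Percoll density, sorted and fixed with formaldehyde before ChIP for H3K4me2 by a method built on iChIP, per the labels' protocols. The submitters' processing notes name bcl2fastq (2.15.0.4), Picard (1.108) and build mm9. Which aligner was used is not stated in those notes, the labels or the headers. The authors deposited, per the file headers, HOMER peak lists that combine both libraries of a population, with the signal of each peak per 10000000 tags and its fold ratio over a control, and a merged table from HOMER's annotatePeaks with the signal of each library per 10000000 tags. The fold is the authors' own and was used as a filter of at least 10 and to describe the densest peaks.

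Peaks were ranked by the list's level, each was tied to the merged peak that overlaps it most, and libraries were read from the merged table (Python 3.11.15, pandas 2.3.3, SciPy 1.17.1). Gene levels are sums over those merged peaks that hold a peak of the list. The named peaks were the 15 strongest, 15 widest, 10 densest and 10 strongest distal ones, those at the edge of rank 100 and the markers, with the 15 strongest genes, the 8 strongest joined regions, and of each gene list the 3 highest members and those without a peak; further members of the lists and peaks to rank 40 were named after their values were seen; a few items that these rules select are not reported here, though they stay in the counts and medians. The contrast of mTEC-II with the average of mTEC-I, mTEC-III and mTEC-IV was tested by limma 3.58.1 (R 4.3.3) on log2(value + 1) with a variance trend, all 8 libraries in the fit (4 residual degrees of freedom), over the 29469 nuclear merged peaks that reached a level of 10 in 2 or more libraries; this scale understates the change of low peaks. The deposited signal came out as multiples of 0.5 tags (100.0% within 0.1 tags), and edgeR 4.0.16 and DESeq2 1.42.0 were run on these steps as alternatives, each step taken as 1 count. The limma script was tested on simulated data. Members and gene lists were chosen with earlier results of these data known.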

Additional observations from a re-analysis of the deposited data

How the results depend on the processing

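Ranking depends on the measure: of the strongest 100 peaks, 9 stayed in a ranking by tags per kb, against 97 with a fold over the control of at least 10, 80 with 1 library in place of both, and 81 by the means of merged peaks. The share of the strongest 500 with a centre within 1 kb of a start site, 33.2%, became 71.6% within 2.5 kb, 70.8% for the 500 densest, and 92.6% for merged peaks that span a start site, an alternative chosen after seeing the data. Of the 8 strongest joined regions, 2 were kept with peaks joined within 5 kb and 2 with no joining. In the comparison with the other populations, 3015 merged peaks were higher and 2130 lower by limma, 6086 and 3377 by edgeR, and 4760 higher by DESeq2. Among the 100 strongest, edgeR called 23 higher, and equal totals left 7 lower. Leaving out 1 library moved the number higher from 311 to 5870 and the number lower over a range up to 5113, its lowest being 242, and among the 100 strongest from 3 to 20 and from 2 to 25; where 1 library of a population is left, it is assumed to vary like the others. With the replicate number as a block, 2899 were higher and 2042 lower; same-numbered libraries did not deviate together (correlations of -0.01 to 0.02), so the numbers do not pair them. Of 34 named or strongest peaks past the threshold, 7 kept their call in every alternative run, 27 lost it in at least 1, and 0 changed direction.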

Other observations

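The 2 mitochondrial peaks of the mTEC-II list were not ranked. Their merged peaks had 2192 and 1713 tags per 10000000 in replicate 1 against 347 and 257 in replicate 2, ratios of 6.32 and 6.67. Across the nuclear merged peaks that hold an mTEC-II peak, the median absolute log2 ratio of the 2 libraries was 0.11, and 95% of them had one of at most 0.38.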
